A study of Mus musculus with 24 samples.

Results

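Slc17a1 to Slc17a5 are 5 mouse genes of a family of membrane transporters for phosphate, urate and other organic anions, and they were described here in polysome-associated RNA of the liver under 2 diets and at 6 hours of the day. They are 5 of the 52636 genes counted, and all 5 passed the filter on low counts that left 15490 genes for testing. The set was selected on earlier results of these data, in which Slc17a4 was seen to vary with the hour. The values of Slc17a4 are therefore a description with no test, and tests are given for its paralogs Slc17a1, Slc17a2, Slc17a3 and Slc17a5. The gene identifiers are ENSMUSG00000021335.13 (Slc17a1), ENSMUSG00000036110.14 (Slc17a2), ENSMUSG00000036083.15 (Slc17a3), ENSMUSG00000021336.17 (Slc17a4) and ENSMUSG00000049624.14 (Slc17a5). All animals were C57BL/6 mice aged 5 months. The control groups (AL) had free access to food, and the calorie restriction groups (CR) received 30% fewer calories for 3 months from an age of 2 months. Liver was taken at zeitgeber time (ZT, hours after lights on) 2, 6, 10, 14, 18 and 22, so that the 24 libraries form 12 groups with 2 libraries apiece. When CR animals received their food during the day is not stated in the labels.

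The SLC17 proteins cross a membrane many times and carry organic or inorganic anions, several of them driven by sodium, chloride or the membrane potential. The first member was isolated as a sodium-phosphate cotransporter, and the products of SLC17A1 and SLC17A3 are best known for moving urate across the apical membrane of the kidney proximal tubule. In hepatocytes the same proteins are thought to pass urate and conjugated organic anions, and the human SLC17A1 to SLC17A4 region is associated with serum urate. SLC17A4 has been described in gut, liver and kidney as an organic anion exporter and as a carrier of thyroid hormone. SLC17A5 is sialin, which lets sialic acid out of the lysosome. Of the other members, SLC17A6, SLC17A7 and SLC17A8 load glutamate into synaptic vesicles and SLC17A9 loads ATP into vesicles.

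Of the 5 genes, 4 lie side by side on chromosome 13 of GRCm38. In the GENCODE annotation of that build Slc17a2 spans chr13:23806993-23825180, Slc17a3 chr13:23839434-23860716 and Slc17a1 chr13:23867750-23895730, all on the plus strand. Slc17a4, on the minus strand, spans chr13:23895890-23915009, so that its end faces the end of Slc17a1 with 159 bases between the annotated genes and 2426 bases between their coding transcripts. Slc17a5 lies alone on the minus strand at chr9:78536488-78588041. None of the 5 overlaps another annotated gene. The libraries were not stranded, so a read that runs past the end of Slc17a1 or Slc17a4 cannot be placed by its strand. The coding sequences of the 4 neighbours were 59.4% to 65.0% identical to each other, highest between Slc17a2 and Slc17a4, while Slc17a5 shared 50.9% to 54.8% with them. No stretch of 50 bases of the exons of Slc17a1, Slc17a2, Slc17a3 or Slc17a4 occurred in another gene, and 6.40% of those of Slc17a5 did, so counts of Slc17a5 could be split with copies.

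The smallest library held 13.8 M counts (M stands for mega), the median one 29.5 M and the largest 60.8 M. Ribosomal RNA features took 1.02% to 62.2% of them, and other genes held 5.64 to 59.6 M counts. Counts of the members ranged from 24 for Slc17a1 in AL ZT14 2 to 8202 for Slc17a2 in AL ZT10 1. Levels are given as CPM, the count of a gene per M counts of its library after TMM scaling. The labels do not say that the libraries of a group came from separate animals, so p-values measure the spread between libraries, which may be technical. At ZT22 the pair of AL libraries is numbered 2C and 2d, with no number 1. In bulk tissue, fewer cells of a type and less RNA per cell cannot be told apart, and polysome-associated RNA can move with the amount of a transcript or with its loading, since total RNA was not analysed here. The 8 hepatocyte markers summed to 38125 to 78125 CPM in AL and 44573 to 99432 CPM in CR. Of them 0 of 8 were called between diets, beside 12.7% of all tested genes. The kidney proximal tubule markers, which matter because Slc17a1 and Slc17a3 are strong there, summed to 0.522 to 2.53 CPM in AL and 0 to 0.623 CPM in CR, with Kap and Umod at 0 in every library. Of that list of 8 genes 2 were tested and 1, Lrp2, was called lower in CR, beside 7.05% of all tested genes. Enterocyte markers Sis, Lct, Alpi and Cdx2 were also at 0 in every library, while the whole list of 7 summed to 14.7 to 212 CPM in AL and 39.1 to 115 CPM in CR, nearly all of it Fabp2, a fatty acid binding protein, at 14.6 to 212 CPM.

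Compared per kilobase of annotated exon, Slc17a2 had the highest level of the 5, with a median of 11.9 CPM per kb over 24 libraries (range 7.45 to 24.4). Slc17a5 followed at 5.85 (3.84 to 10.1), Slc17a3 at 4.39 (1.83 to 10.4), Slc17a4 at 3.83 (1.01 to 7.33) and Slc17a1 at 2.46 (1.15 to 7.003) CPM per kb. The range of Slc17a2 overlapped those of Slc17a5 and Slc17a3 at its lower end and lay above those of Slc17a4 and Slc17a1, and the ranges of Slc17a5, Slc17a3, Slc17a4 and Slc17a1 overlapped from each to the next. The place of Slc17a4 depends on the length used: divided by its longest protein-coding transcript, a choice made after seeing the data, its median was 10.5 CPM per kb against 15.3 for Slc17a2, 6.87 for Slc17a3 and 6.56 for Slc17a5. Of the remaining family members, Slc17a8 was tested at a median of 2.68 CPM per kb and Slc17a9 at 0.36. Slc17a6 had 7 counts in 1 library and Slc17a7 had 1 count in 1 library, with 0 in all others, and neither was tested. Slc17a8 averaged 11.7 ± 7.46 CPM (SD, n = 12) in AL and 14.8 ± 5.48 in CR, and neither it nor Slc17a9 was called between the diets (edgeR, adjusted p = 0.368 and 0.938).

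Slc17a4 was high at the start of the light phase and low at the start of the dark phase in AL, whereas in CR it was lowest in the light phase and highest late in the dark phase. In AL it stood at 35.8 and 34.7 CPM at ZT2, 33.7 and 22.1 at ZT6, 17.9 and 13.5 at ZT10, 8.80 and 6.04 at ZT14, 14.1 and 12.8 at ZT18, and 19.5 and 23.0 at ZT22. The AL means thus went from 35.3 ± 0.769 CPM (SD, n = 2) at ZT2 to 7.42 ± 1.95 at ZT14, which is 4.75-fold, and both ZT14 libraries lay below every other AL library. In CR it stood at 24.8 and 21.4 CPM at ZT2, 26.9 and 8.76 at ZT6, 22.8 and 16.7 at ZT10, 28.2 and 30.4 at ZT14, 40.2 and 28.1 at ZT18, and 43.8 and 35.7 at ZT22. The CR means were lowest at ZT6, 17.9 ± 12.9 CPM (SD, n = 2), and highest at ZT22, 39.8 ± 5.75, a 2.23-fold range, and the ZT6 mean rests on 1 low library, CR ZT6 2 at 8.76 CPM.

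**Figure D1:**
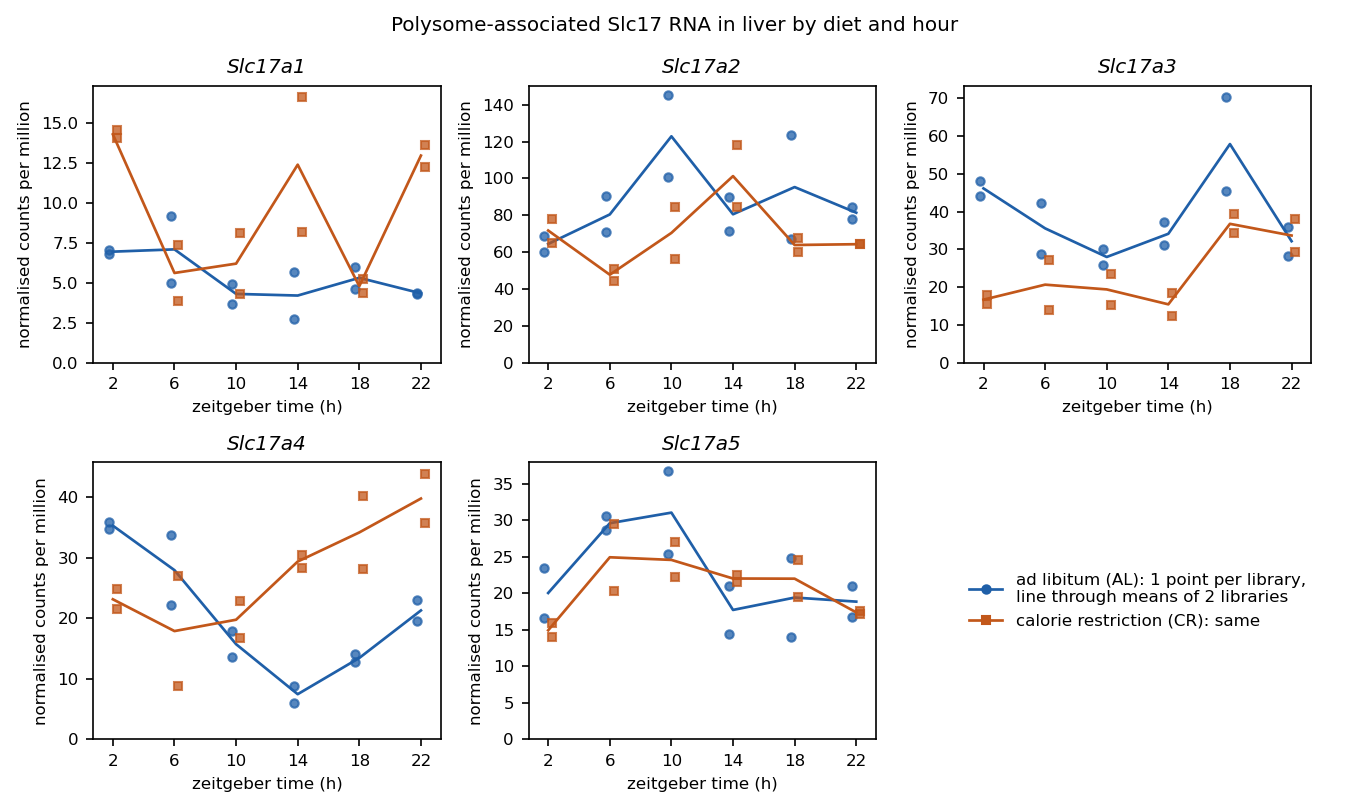
Normalised level in CPM (vertical axis, from 0) of the 5 genes against zeitgeber time in hours, with 1 point per library and lines through the means of 2 libraries for AL (blue circles) and CR (orange squares). Slc17a4 in AL goes from 35.3 at ZT2 to 7.42 at ZT14, whereas in CR it stands at 39.8 at ZT22, and the CR squares of Slc17a3 lie below the AL circles at every hour but ZT22.

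A cosine of 24 h was fitted to each gene in each diet, with the amplitude given from mean to peak on the log2 scale. For Slc17a4 the amplitude was 1.00 ± 0.16 (SE) in AL with a peak at 2.68 ± 0.61 h, and 0.58 ± 0.16 in CR with a peak at 19.3 ± 1.03 h. The median amplitude of all tested genes was 0.38 in AL and 0.42 in CR. The CR amplitude was 0.44 without CR ZT6 2 and 0.75 without CR ZT6 1, while the CR peak stayed between 19.0 and 19.8 h when any single library was left out. Clock genes give the hour reference in the same libraries: Arntl, an activator of the clock, peaked at 22.6 h in AL and 23.0 h in CR, and Nr1d1, the repressor REV-ERB alpha, at 6.78 h and 6.14 h. Dbp, a clock output factor, peaked at 12.1 h and 9.46 h, and Per2, a clock repressor, at 15.8 h and 13.8 h, of which the AL rhythm of Per2 did not pass (edgeR, adjusted p = 0.135). Slc17a4 thus peaked near the start of the light phase in AL and in the second part of the dark phase in CR. This is a description, since Slc17a4 was selected on its time pattern.

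None of the 4 paralogs had a 24-h rhythm that passed the test, among 15490 genes of which edgeR's quasi-likelihood test called 0.42% rhythmic in AL and 1.94% in CR. In AL, Slc17a5 had the largest amplitude of the 4, 0.39 ± 0.14 (SE) with a peak at 7.69 h (adjusted p = 0.428), and those of Slc17a1, Slc17a2 and Slc17a3 were 0.33, 0.28 and 0.31. In CR, Slc17a3 had the largest, 0.47 ± 0.18 with a peak at 20.2 h (adjusted p = 0.245), and those of Slc17a1, Slc17a2 and Slc17a5 were 0.37, 0.27 and 0.31. The mean of Slc17a3 was highest at ZT18 in both diets, at 57.9 ± 17.7 CPM (SD, n = 2) in AL and 36.8 ± 3.62 in CR. The AL maximum rests on AL ZT18 2 at 70.4 CPM, since AL ZT18 1 had 45.4, between the ZT2 libraries at 44.2 and 48.1. The CR libraries at ZT18, 34.2 and 39.3 CPM, overlapped those at ZT22, 38.0 and 29.3. When differences between the 6 hours were tested in place of a cosine, Slc17a1 passed in CR (edgeR, adjusted p = 0.0463), and Slc17a3 did not (adjusted p = 0.0564). That test called 1070 of 15490 genes in CR, where the cosine called 301. The difference in rhythm between the diets passed for 0 of the 4 and for 0% of all genes in edgeR, and DESeq2 called 6 genes. In edgeR 1005 of 15490 had an unadjusted p under 0.05, a limit that a share of 0.05 passes where there is no difference.

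**Figure D2:**
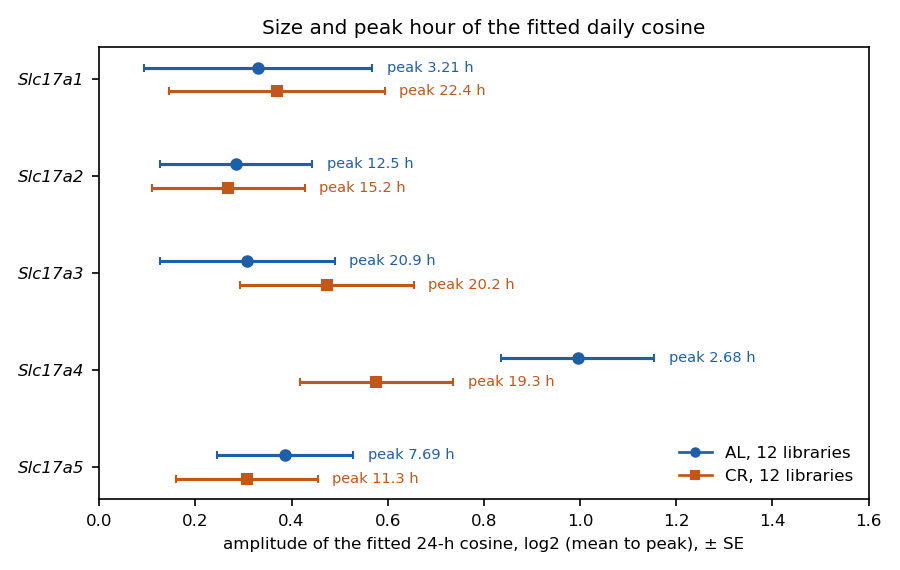
Amplitude of the fitted 24-h cosine (horizontal axis, log2, mean to peak, ± SE) for each gene in AL (blue circles) and CR (orange squares), 12 libraries each, with the fitted peak hour printed beside each point. Slc17a4 in AL stands at 1.00, and the amplitudes of the 4 paralogs lie between 0.27 and 0.47 in both diets.

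Because both counts come from 1 library, the ratio of Slc17a4 to a paralog needs no scaling between libraries. Per count of Slc17a2, the paralog closest to it in coding sequence, Slc17a4 had 0.504 and 0.598 counts at ZT2 in AL and 0.0854 and 0.0984 at ZT14. In CR the same ratio was 0.274 and 0.380 at ZT2, 0.239 and 0.362 at ZT14 and 0.555 and 0.683 at ZT22. At ZT22 in AL it was 0.250 and 0.272, so the AL libraries lay above the CR libraries at ZT2 and below them at ZT14 and ZT22. In CPM the diets did not overlap for 50.3%, 45.1% and 50.4% of all tested genes at these hours. The ratios are a description with no test, since Slc17a4 was selected on its time pattern. Per count of Slc17a3, Slc17a4 had 0.196 and 0.238 counts at ZT14 in AL and 1.65 and 2.27 at the same hour in CR. This ratio was higher in CR at every hour except ZT6, where the 2 CR libraries, 0.626 and 0.988, lay on both sides of the AL values of 0.766 and 0.799. In CPM the share of all tested genes whose diets did not overlap, in either direction, was 37.1% (ZT18) to 50.4% (ZT22) per hour. No such share was computed for ratios. Per count of Slc17a1, its tail-to-tail neighbour, Slc17a4 had 4.91 and 5.25 counts at ZT2 in AL and 1.53 and 1.70 in CR, and at ZT18 it had 2.12 and 3.04 in AL and 6.48 and 7.67 in CR. Per count of Slc17a5, the ratio went from 1.82 at ZT2 to 0.451 at ZT14 in AL, as means of 2 libraries, and in CR was lowest at ZT10, 0.800, and highest at ZT22, 2.29. When this last ratio is averaged on the log2 scale, the lowest CR mean is at ZT6 instead, -0.67, where the 2 libraries lie far apart. The range of the CR group means on that scale was 1.86. It was 2.93 without CR ZT6 1 and 1.51 without CR ZT6 2.

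**Figure D3:**
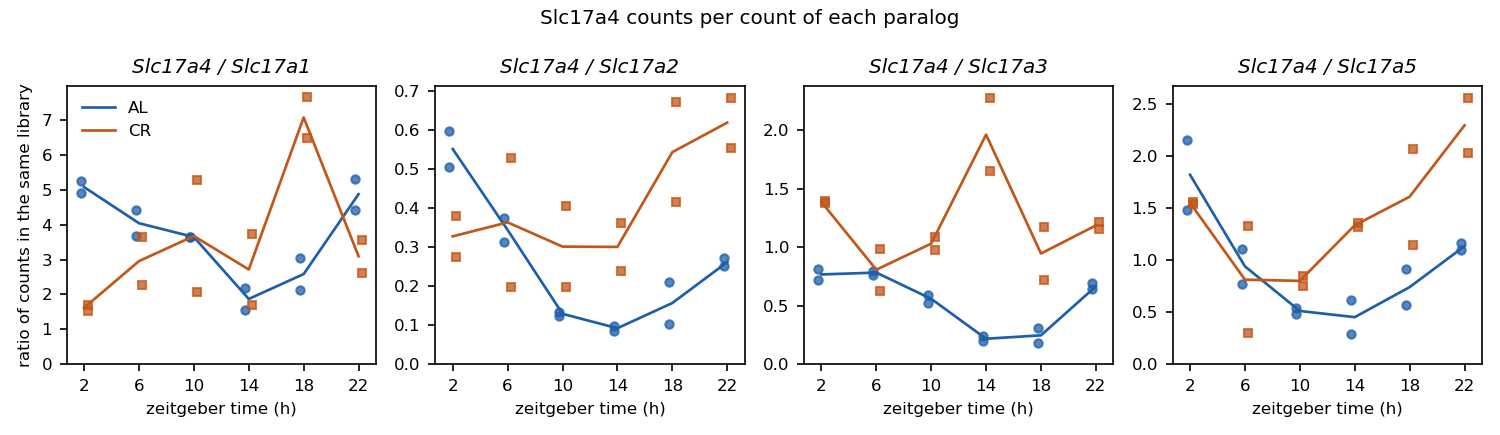
Counts of Slc17a4 divided by counts of each paralog in the same library, 0.5 added to each count (vertical axes, from 0, each with its own scale). The horizontal axis is zeitgeber time in hours, with 1 point per library. Lines run through the means of 2 libraries for AL (blue circles) and CR (orange squares). In AL all 4 ratios are lowest at ZT14, and the ratio to Slc17a3 at ZT14 goes from 0.217 in AL to 1.96 in CR.

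Across the 12 group means of log2 CPM, Slc17a4 had a Pearson r of 0.59 with Slc17a1, -0.04 with Slc17a3, -0.23 with Slc17a2 and 0.02 with Slc17a5. Within the 6 AL means r was 0.80 with Slc17a1 and 0.13 with Slc17a3, and within the 6 CR means 0.40 and 0.61. With the other paralogs the sign differed by diet: -0.41 in AL and 0.43 in CR for Slc17a2, and 0.34 and -0.42 for Slc17a5. These values share libraries and scaling and are given as a description with no test. The 5 genes most like Slc17a4 over the 12 means, among 7190 candidates, were Cept1 (r = 0.91), Atg5 (0.88), Coa5 (0.87), Oxnad1 (0.87) and Arl4a (0.85). Cept1 makes phosphatidylcholine and phosphatidylethanolamine, and Atg5 serves the growth of autophagosomes. Single libraries decided part of this order, CR ZT6 1 among them, since without it r was 0.56 for Coa5 and 0.47 for Arl4a, and without CR ZT6 2 it was 0.63 for Oxnad1.

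Among the paralogs the lists held other genes. Each list, that of Slc17a4 included, was picked for the highest r among 7190 candidates, so r is a description with no test. Slc17a3 was most like Elovl1 (r = 0.95), BC049987 (0.92), Mrps2 (0.91), Rtp3 (0.91) and Arhgap26 (0.89), of which Elovl1 lengthens saturated very long chain fatty acids. Slc17a1 was most like Hacl1 (0.86), Hbb-bs, Pmvk, Btg1 (each 0.85) and Lbp (0.84). Hbb-bs is a beta-globin of red blood cells, and its part in the values of Slc17a1 was not tested. Slc17a2 was most like Atp13a2 (0.88), Pip5k1a (0.86), Mad2l1bp (0.85), Mpp1 (0.83) and Map2k5 (0.80), and Slc17a5 like Tmed4 (0.85), Afm (0.83), Gramd1a (0.80), Wdr45 (0.80) and Bcas3 (0.78). Without CR ZT6 2 the r of Slc17a5 with Gramd1a was 0.53.

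Averaged over the 6 hours, Slc17a3 fell and Slc17a1 rose under calorie restriction. On this average 12.7% of all tested genes were called at an adjusted p under 0.05, 5.6% higher and 7.05% lower in CR, and of the 4 paralogs 1 was called higher, 1 lower and 2 in neither direction. The 5 genes share the same 24 libraries, so their changes are given side by side.

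Slc17a3, the urate and organic anion transporter NPT4, was lower in CR by 0.75 ± 0.14 (SE) on the log2 scale, and edgeR gave an adjusted p of 0.00104. It averaged 39.0 ± 12.4 CPM (SD, n = 12) in AL and 23.8 ± 9.64 in CR. At ZT2 the AL libraries had 44.2 and 48.1 CPM and the CR libraries 17.8 and 15.5, and at ZT14 they had 37.1 and 31.1 against 12.4 and 18.4. At ZT6 the values were 42.2 and 28.9 against 27.3 and 14.0, at ZT10 30.2 and 25.7 against 23.4 and 15.4, and at ZT18 45.4 and 70.4 against 34.2 and 39.3. At ZT22 the diets overlapped, with 28.4 and 36.0 in AL and 38.0 and 29.3 in CR. Both CR libraries thus lay below both AL libraries at 5 of 6 hours, which 2.93% of all tested genes did at 5 or more hours. The change ranged from -0.85 to -0.68 when any 1 library was left out, and the call held each time.

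Slc17a1, the sodium-phosphate cotransporter NPT1 that also carries urate, was higher in CR by 0.69 ± 0.18 (SE) on the log2 scale (edgeR, adjusted p = 0.0130). It averaged 5.36 ± 1.73 CPM (SD, n = 12) in AL and 9.37 ± 4.60 in CR, and its counts ranged from 24 to 915. At ZT2 the AL libraries had 6.81 and 7.07 CPM and the CR libraries 14.5 and 14.0, at ZT14 5.65 and 2.74 against 16.6 and 8.15, and at ZT22 4.38 and 4.29 against 12.3 and 13.6. At these 3 hours the diets did not overlap, as for 50.3%, 45.1% and 50.4% of all tested genes. At ZT6 (9.18 and 4.98 against 7.36 and 3.85), ZT10 (4.90 and 3.69 against 4.30 and 8.08) and ZT18 (4.61 and 6.00 against 5.23 and 4.34) they did. Whether its diet difference varied over the hours did not pass the test (adjusted p = 0.527). Without any composition factor the call of Slc17a1 was lost, at 0.62 and an adjusted p of 0.0867, and leaving out each library in turn gave 0.59 to 0.80 with the call kept.

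Slc17a2, the transporter NPT3, was lower in CR by 0.33 ± 0.13 (SE) and did not pass (adjusted p = 0.107). It averaged 87.5 ± 25.1 CPM (SD, n = 12) in AL and 69.9 ± 19.6 in CR, and both CR libraries lay below both AL libraries at ZT6, ZT10 and ZT22, hours at which the diets did not overlap, in either direction, for 41.8%, 38.5% and 50.4% of all tested genes. Without AL ZT18 1 the change was -0.40 (adjusted p = 0.0443), and without CR ZT10 2 -0.39 (adjusted p = 0.0456), so the side of the threshold turns on single libraries. Slc17a5, the lysosomal sialic acid exporter, differed by -0.10 ± 0.13 (adjusted p = 0.695), with 22.8 ± 6.93 CPM (SD, n = 12) in AL and 20.9 ± 4.57 in CR. For Slc17a4 the average was 0.55 ± 0.16 higher in CR, 20.2 ± 10.1 CPM in AL and 27.3 ± 9.72 in CR, and 0.37 without CR ZT6 1.

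Ribosomal RNA share and cells other than hepatocytes also differed between libraries. With the log2 ratio of ribosomal to other counts as a covariate, the changes were 0.69 for Slc17a1 (edgeR, adjusted p = 0.0109) and -0.76 for Slc17a3 (adjusted p = 0.000201). AL ZT22 2C and AL ZT10 1 held the most acute phase transcripts, and without both the changes were 0.73 (adjusted p = 0.0342) and -0.77 (adjusted p = 0.00395). Beside each marker list that follows stand the 5.6% of all tested genes called higher and the 7.05% called lower in CR. Of 6 Kupffer cell markers 5 fell and 1 rose in CR, and the list summed to 70.0 to 190 CPM in AL and 36.5 to 75.5 CPM in CR. Of the markers of T, B and NK cells 2 of 6 tested fell, of stellate cell markers 3 of 6 rose, and of acinar cell markers 1 of 2 tested fell, while 0 of 5 cholangiocyte markers passed and endothelial markers had 1 call each way of 6. The part of these cells in the changes of Slc17a1 and Slc17a3 was not tested.

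At single hours the test had 2 libraries against 2. In the main fit, with all 24 libraries, the low-count filter, TMM scaling and no covariate, none of the 4 paralogs passed it with edgeR at any hour. Of all genes it called 0.562% at ZT2, 0.387% at ZT6, 0.742% at ZT10, 1.7% at ZT14, 0.562% at ZT18 and 0.936% at ZT22. With 1 library left out, the number of calls at an hour stayed within 1.5 times in 18 to 21 of 24 fits. In the others it fell or rose further. The lowest number at each hour came without a library of that hour, which leaves 1 library against 2. With no composition factor ZT22 had 1703 calls. Nearest to a call were Slc17a3 at ZT2, -1.47 ± 0.36 on the log2 scale (SE, adjusted p = 0.0664), and Slc17a1 at ZT14, 1.53 ± 0.45 (adjusted p = 0.0907), and at ZT22, 1.58 ± 0.45 (adjusted p = 0.109). DESeq2 called these 3, with adjusted p-values of 0.0131, 0.0268 and 0.0222. With edgeR and no low-count filter the same 3 passed (0.0169, 0.0453 and 0.0339), and with no composition factor Slc17a3 at ZT2 (adjusted p = 0.049997) and Slc17a1 at ZT22 (0.0170). Slc17a3 also passed at ZT14 with the ribosomal covariate (0.0324), and at ZT2 without CR ZT6 1, CR ZT6 2, CR ZT10 1B or CR ZT10 2 (0.0323 to 0.0381) and without CR ZT6 2 and CR ZT18 2 together (0.0408). These single-hour calls therefore turn on the setting. The log2 changes of Slc17a4 were -0.61 at ZT2, -0.65 at ZT6, 0.33 at ZT10, 1.97 at ZT14, 1.35 at ZT18 and 0.90 at ZT22, each with an SE of 0.39 to 0.41. Its diets did not overlap at ZT2, where CR was lower, nor at ZT14, ZT18 and ZT22, where CR was higher by 3.95-fold, 2.55-fold and 1.87-fold in the ratio of means. Diets that do not overlap are common with 2 libraries each: they made up 50.3% of all genes at ZT2, 41.8% at ZT6, 38.5% at ZT10, 45.1% at ZT14, 37.1% at ZT18 and 50.4% at ZT22. The test of whether the diet difference varied over the hours called 0 of the 4 paralogs and 0% of all genes with edgeR. An unadjusted p under 0.05 was found for 1334 of 15490 genes, a limit that a share of 0.05 passes where there is no difference. DESeq2 called 188 genes, none of them a paralog.

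**Figure D4:**
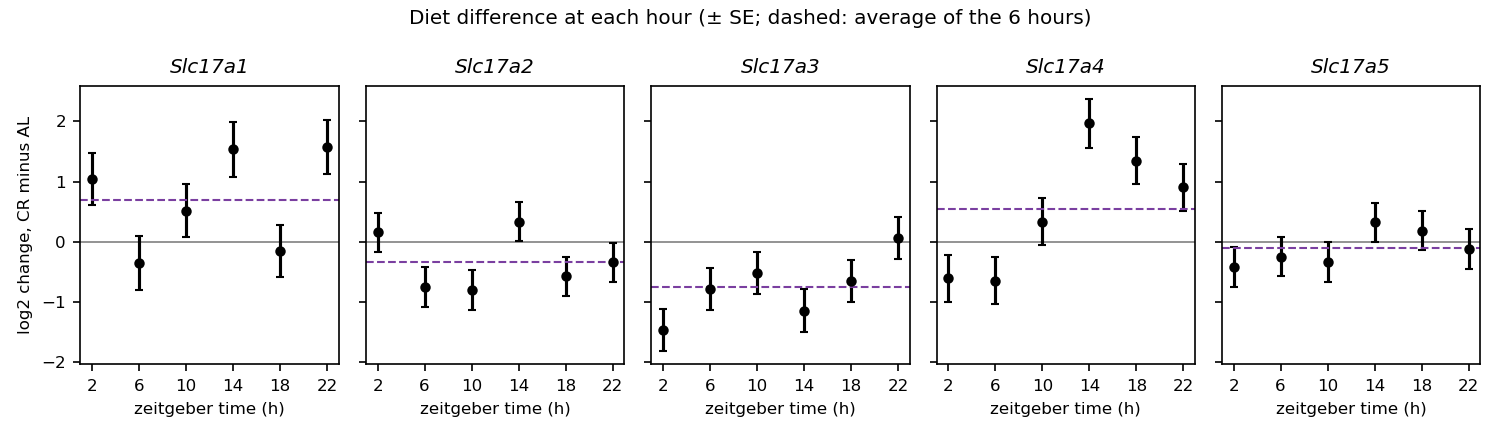
Log2 change, CR minus AL, at each zeitgeber time (points, ± SE) for the 5 genes, with the grey line at no change and the dashed line at the average of the 6 hours. Slc17a3 lies below 0 from ZT2 to ZT18, Slc17a1 is above 1 at ZT2, ZT14 and ZT22, and Slc17a4 crosses from -0.61 at ZT2 to 1.97 at ZT14.

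Promoter sequences are shown for the 3 clustered paralogs to compare the bases before their starts, since Slc17a1 and Slc17a3 were called in opposite directions and stand next to each other. RefSeq (GRCm38.p6) gave promoters for 4 of the 5 genes, Slc17a1 with 2 starts. Each line is the 250 bases before a start, 5′ to 3′ on the plus strand, with capitals for the longest word that 2 of these promoters share and for 3 searched motifs.
Slc17a2, chr13:23806743-23806992: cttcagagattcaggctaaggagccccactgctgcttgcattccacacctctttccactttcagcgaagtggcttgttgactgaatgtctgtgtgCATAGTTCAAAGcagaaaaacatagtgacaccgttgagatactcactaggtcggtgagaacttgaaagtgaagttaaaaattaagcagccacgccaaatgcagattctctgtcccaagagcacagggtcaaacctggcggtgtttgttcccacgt
Slc17a3, chr13:23839184-23839433: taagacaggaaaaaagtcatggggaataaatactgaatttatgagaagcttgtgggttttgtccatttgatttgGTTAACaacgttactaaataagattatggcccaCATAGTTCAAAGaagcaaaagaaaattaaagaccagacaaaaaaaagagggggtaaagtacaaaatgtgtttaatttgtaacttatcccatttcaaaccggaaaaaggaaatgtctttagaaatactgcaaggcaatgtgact
Slc17a1, first start, chr13:23868768-23869017: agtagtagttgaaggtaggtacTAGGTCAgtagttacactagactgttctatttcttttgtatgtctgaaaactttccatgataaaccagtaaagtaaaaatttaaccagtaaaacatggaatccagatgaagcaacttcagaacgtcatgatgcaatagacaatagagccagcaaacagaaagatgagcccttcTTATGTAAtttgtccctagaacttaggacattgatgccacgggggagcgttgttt
The word CATAGTTCAAAG is in the promoters of Slc17a2, with its first base at position -155 counted from the start, and of Slc17a3, at -143, and in 3 of 32851 promoters (0.00913%, on either strand). It was picked for being shared, so its rarity is a description. Slc17a1 has the D-box TTATGTAA, a word bound by Dbp and its relatives, at -55 from its first start (0.938% of promoters hold it), and TAGGTCA, the core of a ROR element, at -228 (2.61%). The promoter of its second start, not printed, holds neither word. Both RefSeq starts of Slc17a1 lie inside the gene as GENCODE annotates it, which begins at chr13:23867750. In Slc17a3 the capitals GTTAAC, 1 form of an HNF1 half-site, lie at -176 (3.05%). The E-box CACGTG begins at -5 in Slc17a2 and runs over the start (7.15%), and GTTAAT (7.10% of promoters) was in none of the 5 promoters. Windows were 250 bases before to 50 after a start, both strands were searched, and these matches do not overlap each other. A match is a description of letters, not a site.

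Around these genes, phosphate handling held 4 genes that rose in CR and none that fell, of 8 tested and 11 listed, where 5.6% of all tested genes were called higher and 7.05% lower, with a median log2 change of 0.60 against -0.02 over all tested genes. Slc37a4, the glucose-6-phosphate and phosphate exchanger of the endoplasmic reticulum, rose by 0.84 ± 0.13 (SE, adjusted p = 0.000137). Enpp1, which makes pyrophosphate from ATP, rose by 0.74 ± 0.15 (adjusted p = 0.0019), Alpl, tissue-nonspecific alkaline phosphatase, by 0.66 ± 0.17 (adjusted p = 0.0107), and Slc20a1, the phosphate importer PiT1, by 0.54 ± 0.15 (adjusted p = 0.0200). This list and those that follow were drawn up with earlier results of these data known, and their counts support no direction. With AL ZT10 1 and AL ZT22 2C left out, 2 of the 8 rose.

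Among genes of urate transport 2 rose and 2 fell, of 6 tested and 11 listed, beside 5.6% higher and 7.05% lower over all tested genes. Slc22a7, the organic anion transporter OAT2, fell by 2.05 on the log2 scale (edgeR, adjusted p = 2.75e-05), from 72.5 ± 55.9 CPM (SD, n = 12) in AL to 18.9 ± 20.5 in CR. Abcg2, the urate exporter BCRP, fell by 0.61 (adjusted p = 0.0194). Abcc4, the exporter MRP4, rose by 2.23 (adjusted p = 9.11e-05) from 0.757 ± 0.484 CPM to 3.84 ± 1.97, and Slc2a9, the urate transporter GLUT9, rose by 0.46 (adjusted p = 0.0392). The median change of the list was -0.49. When each library was left out in turn, 2 genes still rose in 5 of 24 fits and 1 in the others, and without AL ZT6 1 only 1 fell. The kidney urate exchanger Slc22a12 was not tested.

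Enzymes that form and break down urate mostly did not pass: 2 of 15 tested rose and none fell, with a median change of -0.04. Over all tested genes 5.6% were called higher and 7.05% lower. With 1 library left out, 1 gene fell without AL ZT14 1, AL ZT18 2, AL ZT22 2d, CR ZT6 1, CR ZT10 2 or CR ZT18 2. Those 2 were Nt5e, which makes adenosine from AMP, up by 1.79 (edgeR, adjusted p = 0.000223), and Aprt, which salvages adenine, up by 0.82 (adjusted p = 0.000415). Xdh, the xanthine oxidoreductase that makes urate, stood at -0.14 (adjusted p = 0.640), and Uox, the urate oxidase that mice retain, by -0.07 (adjusted p = 0.842). In purine synthesis 1 of 13 tested rose, Adssl1, an adenylosuccinate synthase, by 0.68 (adjusted p = 0.00707), a share near the 5.6% of all tested genes, with a median of 0.04. The count was 2 under DESeq2's size factors, and also without AL ZT6 1, AL ZT18 1, CR ZT6 1, CR ZT10 1B or CR ZT22 1.

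Of the 16 genes of sialic acid and lysosomal transport, which surround Slc17a5, none rose and 1 fell, a share near the 7.05% called lower over all tested genes, with a median of -0.12. Nans, which makes the phosphate form of sialic acid, fell by 0.67 (edgeR, adjusted p = 0.0154). Gne, the first enzyme of that pathway, did not pass on the diet average (-0.10, adjusted p = 0.698) and was rhythmic in CR with a peak at 11.8 h (adjusted p = 0.00285). Up to 3 genes fell when 1 library was left out (3 without AL ZT18 1 or CR ZT10 2).

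Thyroid hormone genes, listed because SLC17A4 can carry the hormone, had 3 that rose and 2 that fell of 14 tested, beside 5.6% higher and 7.05% lower over all tested genes, with a median of -0.05. Dio1, which activates thyroxine in liver, fell by 2.07 (edgeR, adjusted p = 4.48e-05), from 197 ± 81.3 CPM (SD, n = 12) in AL to 50.7 ± 45.2 in CR. Crym, a cytosolic binding protein of the hormone, rose by 0.85 (adjusted p = 0.0335). Dio3, which inactivates the hormone, was called higher at levels near 0, 0.0285 ± 0.0689 CPM in AL and 0.221 ± 0.152 in CR. Slc16a10, the transporter MCT10, named outside the rule for naming genes and after its values were seen, rose by 0.39 (adjusted p = 0.0494). Of the 24 fits with 1 library left out, the rise of 3 genes was held to within 1.5 times in 13, and the lowest count was 1. The number that fell ranged from 1 to 3, and was 1 when the library left out was CR ZT22 1, CR ZT14 1, AL ZT10 1, CR ZT18 1 or AL ZT2 2.

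Within 250 kb of the 4 clustered genes the annotation holds 44 other genes, of which 17 were tested and 5 reached a geometric mean of 1 CPM. None of the 17 was called rhythmic in either diet or in the test of diet by hour. On the diet average 2 were called, both lower in CR, beside 7.05% lower and 5.6% higher over all tested genes. Those were Hfe, a regulator of hepcidin and iron uptake that lies 96139 bases away, at -0.46 (edgeR, adjusted p = 0.0396), and Carmil1, an actin regulator 97335 bases away, at -1.99 (adjusted p = 5.86e-06). The nearest of the 5, the linker histone gene Hist1h1c at 66626 bases, stood at -0.12 (adjusted p = 0.739). Hist1h2bc, at 114085 bases, stood at -0.39 (adjusted p = 0.0923) and Hist1h1e, at 184435 bases, by -0.15 (adjusted p = 0.926).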

How the data were processed

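Polysome-associated polyA RNA of mouse liver was sequenced without strand information in 24 libraries. The deposited files hold raw counts per gene for each library. FastQC, HTSeq and DESeq2 and the build GRCm38.p5 are named per the submitters' processing notes, with no versions, and the annotation release is not given in the sources used here. Symbols were found for 52489 of 52636 identifiers. The authors' counts were scaled by TMM and tested with edgeR 4.0.16 in R 4.3.3 (quasi-likelihood, filterByExpr, 1 mean per group of diet and hour), and a 24-h cosine was fitted per diet. P-values were adjusted by Benjamini-Hochberg over 15490 genes, with calls at 0.05. The SE of a log2 change is its size divided by the square root of F. The SE of an amplitude or peak hour was derived from the SEs of the cosine and sine terms, without their covariance. Members and gene lists were chosen with earlier results of these data known. Named genes were the members, up to 4 called genes per list with the smallest p, 5 genes nearest each member in pattern (geometric mean of at least 5 CPM, prior count 2), neighbours within 250 kb and 4 clock genes, and 1 gene that the rule would name is not reported here. For the ratios, plain and log2, 0.5 was added to each count. Replicate libraries of every group differed by more than sampling noise in a chi-square over all features, ribosomal RNA included. It scaled by library totals only, so the spread of the other genes was not measured apart. The replicate numbers did not pair the libraries. The test was also run on counts simulated from the spread fitted to these libraries. That cannot show how it does where real counts depart from the fitted model. Alternatives were DESeq2 1.42.0, other scalings, filters, covariates and models, and leaving out libraries.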

Additional observations from a re-analysis of the deposited data

Results flagged for a closer look

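Slc17a4 lay on opposite sides of AL at different hours. The ratio of the CR mean to the AL mean was 0.655 at ZT2, 3.95 at ZT14, 2.55 at ZT18 and 1.87 at ZT22, and at each of these hours both CR libraries lay on 1 side of both AL libraries. The diets did not overlap for 50.3%, 45.1%, 37.1% and 50.4% of all tested genes at these hours. The difference between hours was not tested, since the gene was selected on its time pattern. Slc17a5, the lysosomal sialic acid exporter, also changed side, with a ratio of 0.745 at ZT2 and 1.24 at ZT14. Its diet by hour test did not pass (edgeR, adjusted p = 0.847), and at ZT14 the higher AL library had 21.0 CPM and the lower CR library 21.5 CPM.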

How the results depend on the processing

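The rise of Slc17a1 and the fall of Slc17a3 on the diet average kept their direction under each alternative, and the calls were kept except for Slc17a1 with no composition factor (0.62, adjusted p = 0.0867). With that setting the median log2 change of all genes was -0.80 at ZT2 and 0.91 at ZT22, against -0.02 and -0.03 with TMM, and it moved the share of calls higher in CR from 33.3% to 11.6% at ZT2 and from 40% to 96.1% at ZT22. It also gave an AL peak of Slc17a4 at 3.58 h, 1170 genes on the diet average, 3 for diet by hour, and rhythms of 28 (AL) and 188 (CR). With no low-count filter the calls were 709 for diet by hour, 447 and 1244 for rhythms and 295 for their difference. With DESeq2 they were 188, 270, 729 and 6. Replicate numbers paired no libraries (correlations -0.05 to 0.20), and the replicate block gave 1 call for diet by hour and 1 for the rhythm difference and changed no call of a paralog. The diet average had 1294 calls and the AL rhythm 42 once AL ZT10 1 and AL ZT22 2C were left out. CR libraries alone gave 123. Differences between hours gave 783 and 1070 rhythms and called Slc17a1 in CR (0.0463). Per longest transcript the medians were 15.3 (Slc17a2), 6.87 (Slc17a3) and 5.21 (Slc17a4), or 10.5 for Slc17a4 per coding transcript, chosen after seeing the data.

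Leaving out each library in turn, Slc17a2 ranged from -0.40 to -0.25, diet by hour from 0 to 41 calls (41 without CR ZT6 1), the rhythm difference from 0 to 5, AL rhythms from 36 to 96 and CR rhythms from 154 to 607 (607 without CR ZT10 2). Single-hour changes that turned sign were never called: with no composition factor Slc17a1 at ZT18 (0.027), Slc17a2 at ZT2 (-0.62) and ZT22 (0.62) and Slc17a5 at ZT22 (0.85). Slc17a3 at ZT22 was -0.28 with the ribosomal covariate, -0.015 with the replicate block and -0.089 with AL ZT10 1 and AL ZT22 2C left out, and Slc17a1 at ZT6 was 0.039 without CR ZT6 2 and CR ZT18 2. Over single libraries left out, Slc17a1 ranged from -0.90 to 0.16 at ZT6, -0.016 to 0.90 at ZT10 and -0.34 to 0.047 at ZT18, Slc17a3 from -0.10 to 0.35 at ZT22, and Slc17a5 from -0.60 to 0.0053 at ZT10, -0.18 to 0.64 at ZT18 and -0.26 to 0.062 at ZT22. The cause was not tested. Depth limits Slc17a1 most, with as few as 24 counts.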

Other observations

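Among 17 liver transcription factors, a list drawn up with earlier results known, 3 rose and 4 fell in CR on the diet average (edgeR), beside 5.6% higher and 7.05% lower over all tested genes, with a median log2 change of -0.04. Cux2, a female-biased transcription factor of the liver, rose from 0.183 ± 0.207 CPM (SD, n = 12) in AL to 9.68 ± 6.69 in CR (adjusted p = 1.27e-09). Bcl6, a male-biased repressor, fell by 1.44 (adjusted p = 0.00227), Foxa1, a pioneer factor, by 1.05 (adjusted p = 0.000442), and Cebpa by 0.65 (adjusted p = 0.00304). Of 12 clock genes, 2 rose on the diet average, Per1 by 1.54 (adjusted p = 0.000507) and Tef by 0.61 (adjusted p = 0.0249), beside 5.6% of all tested genes. That count ranged from 1 to 4 when 1 library was left out and was within 1.5 times in 16 of 24 fits (1 without AL ZT2 1 and 4 without AL ZT6 1, for example). Of the 12, 9 were called rhythmic in AL and 12 in CR, beside 0.42% and 1.94% of all tested genes.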
